A study of Homo sapiens with 28 samples.

Results

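The open chromatin at the annotated starts of microRNA genes was examined in myeloma cell lines. A start region was taken into the set when the deposited region table placed it directly on a transcription start (a distance of 0) and the gene at that start carried a microRNA name, host genes ending in HG (host gene) included. This rule gave 119 regions carrying 116 gene symbols, 13 of them host genes with 15 regions, among 18012 regions on a gene start and 154985 regions in all. The choice within the table used gene names and positions and no measured level. The table itself was merged from peaks called in these libraries, so starts without a peak in any library are absent.

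MicroRNAs are short RNAs that lower the output of messenger RNAs to which they pair. A microRNA is cut from a folded hairpin, first in the nucleus by DROSHA with DGCR8 and then in the cytoplasm by DICER1, and is loaded into an Argonaute protein, where its seed, bases 2 to 8, leads target recognition. Some hairpins lie in introns of protein-coding genes and are transcribed with them, and others come from long non-coding host transcripts with a promoter of their own. In B cells and plasma cells, miR-155, miR-146a, miR-142, miR-150, miR-181 and the miR-17-92 cluster are well-known members of the lymphoid repertoire. Accessibility of a start says that transposase could enter there, and the abundance of the mature microRNAs was not measured.

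The assay was ATAC-seq. In it the Tn5 transposase places sequencing adapters into open chromatin of isolated nuclei. The samples were 22 untreated established myeloma lines, each assayed as 1 library: H1112, Karpas620, KMS11, KMS12BM, KMS12PE, KMS18, KMS20, KMS21BM, KMS26, KMS27, KMS28, KMS34, L363, LP1, MM1S, OCIMY5, OPM2, PCM6, PE1, RPMI8226, U266 and XG-6. For Karpas620, KMS27, L363, MM1S, OPM2 and RPMI8226 there was also 1 library each of cells on day 3 of 10 µM lenalidomide, a drug that redirects the ubiquitin ligase subunit cereblon. All 28 libraries came from cells in culture, the labels give no vehicle for the untreated cells, and no line was assayed in replicate under a condition, so the error within a line is unknown and lines are the unit of every comparison.

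Libraries held 1599857 to 5564534 counts in regions (median 2239819) when untreated and 2168680 to 4248017 (median 2655490) after lenalidomide. The 14 start regions of 10 plasma cell genes together held 231 to 462 CPM (counts scaled by the library's total in regions) in every untreated line. Of these regions 3 were called in all 22 lines, while SLAMF7 was called in 2 lines and IGJ in 3. The sums were 7.76 to 60.4 for 5 regions of 4 B cell genes, 2.50 to 27.4 for 4 regions of 3 T cell genes and 0 to 34.2 for 1 region of 1 myeloid gene. The 3 regions of 3 genes of an erythroid list summed to 52.0 to 174, and EPOR and ALAS1 were called in 22 and 21 lines and HBB in 9. The sums cover unlike numbers of regions, so they do not compare levels per region. The libraries labelled KMS34 and PE1 were alike to the degree seen between libraries of 1 line. Across 41640 regions with a mean above 5 CPM, the deviations of these libraries from the mean of the 22 lines had r = 0.82, while the next most alike lines, KMS12BM and KMS12PE, had r = 0.35. Taken over all 28 libraries, KMS34 and PE1 had r = 0.83, and the untreated and lenalidomide libraries of a line had r = 0.77 to 0.89. Over the 119 microRNA start regions the value for KMS34 and PE1 was 0.74, the next highest was 0.34 and the median over 231 pairs of lines was -0.048. These correlations are descriptions across regions that share libraries. All 39 microRNA start regions called in PE1 were also called in KMS34, which had 48. The tally of calls over lines is therefore given with and without PE1, and single regions with a called peak in PE1 are marked below.

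The seeds of the microRNAs behind these starts show which loci could act on shared targets. RefSeq hairpin or mature sequences were matched by letters to GRCh37 for 104 of the 119 regions, and 92 regions overlapped such a match. The mature strands below belong to the loci that the results turn on, written 5′ to 3′ with the seed in capitals. The first 4 come from MIR17HG, which carries 6 hairpins from chr13:92002859-92002942 (miR-17) to chr13:92003568-92003645 (miR-92a-1).
miR-17-5p: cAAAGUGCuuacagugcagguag
miR-20a-5p: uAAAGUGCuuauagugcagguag
miR-19a-3p: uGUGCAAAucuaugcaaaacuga
miR-92a-3p: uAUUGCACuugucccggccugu
miR-155-5p: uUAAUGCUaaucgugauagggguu
miR-146a-5p: uGAGAACUgaauuccauggguu
miR-142-3p: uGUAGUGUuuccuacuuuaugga
miR-181a-5p: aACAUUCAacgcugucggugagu
miR-22-3p: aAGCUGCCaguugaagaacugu
miR-148a-3p: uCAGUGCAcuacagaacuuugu
miR-152-3p: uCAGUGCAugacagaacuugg
miR-4458: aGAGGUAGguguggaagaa
miR-4500: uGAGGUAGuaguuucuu
The seed AAAGUGC was shared by miR-17-5p and miR-20a-5p, and the seed CAGUGCA by miR-148a-3p and miR-152-3p, whose genes lie on chromosomes 7 and 17. The seed GAGGUAG, which is also that of the let-7 family, was shared by miR-4458 and miR-4500. None of 11 let-7 genes had a region in the set, so the hosts of miR-4458 and miR-4500 were the starts with this seed.

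Most of the regions were hairpin starts. In 95 regions the annotated transcript was at most 200 bp long, and in 24 it was longer. The start of such a short transcript is the end of a hairpin and does not by itself mark a promoter. A protein-coding gene also started inside 29 of the 119 regions (24.4%), against 74.0% of the other 17893 start regions. Peaks were called in all 22 untreated lines at 26 microRNA starts (21.8%), in 2 to 21 lines at 69, in 1 line at 22 and in no untreated line at 2, MIR199B and MIR329-1. Of the other start regions, 29.4% were called in all 22 lines and 10.1% in 1 line. The 26 regions were also called in all 6 lenalidomide libraries. Without PE1, 26 regions were called in every remaining line, 22 in 1 line and 2 in none.

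How often a region was called differed between classes of start. Of 24 hairpin starts that shared the region with a protein-coding start, 13 were called in all 22 lines (54.2%), against 37.6% of other starts of this kind. Of the 71 hairpin starts without one, 3 were (4.23%), MIR4757, MIR3178 and MIR4519, against 6.30% of other starts of this kind. Of the 24 starts of long transcripts, 10 were called in all lines, 3 of 5 with a protein-coding start and 7 of 19 without one. At MIR3180-1, MIR3180-2 and MIR4523, which are among them, the matched microRNA sequence lies on the strand opposite to the long transcript. The median level over the regions was 5.01 CPM per kb for hairpins without a protein-coding start, 23.03 for hairpins with one and 29.9 for long transcripts. Other start regions stood at 22.98 CPM per kb where a protein-coding gene started and at 5.59 where none did. Over all 119 regions the median was 9.24 CPM per kb against 17.4 for the other starts. No test was made of these medians, and the class sizes of the 2 sets differ.

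**Figure D1:**
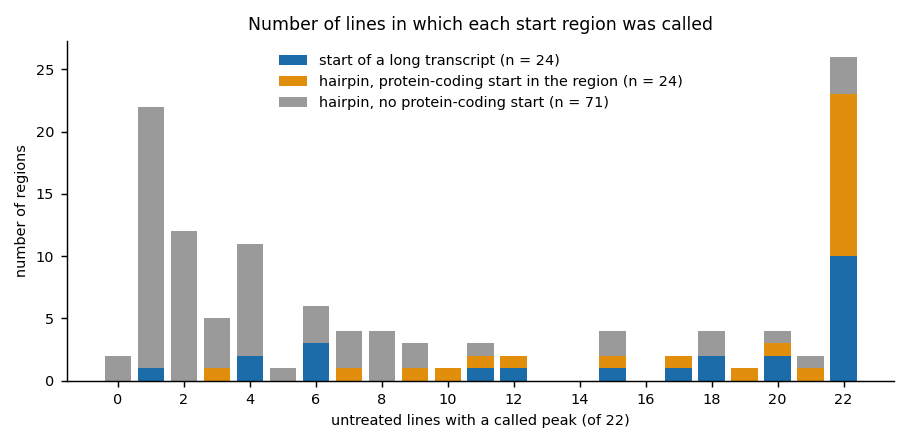
Number of microRNA start regions (vertical axis) by the number of the 22 untreated lines in which a peak was called (horizontal axis), with colours for starts of long transcripts and for hairpins with or without a protein-coding start in the region. The tall bars are at 22 lines (26 regions) and at 1 line (22 regions), and the bar at 1 line is mostly hairpins without a protein-coding start.

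The called state and the level did not always go together. Of 91 regions called in 1 to 21 lines, 41 had every called line above every uncalled line in CPM, and in 50 the ranges overlapped. This split was not counted over other start regions, so it does not set the microRNA starts apart. Calls and CPM also come from the same reads. At MIR142 a peak was called in 6 lines at 23.2 to 57.2 CPM, while the lines without a call had 17.6 to 41.3 CPM. Of 1439 uncalled values, 129 were at 10 CPM or more. Levels are given below beside calls for this reason.

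**Figure D2:**
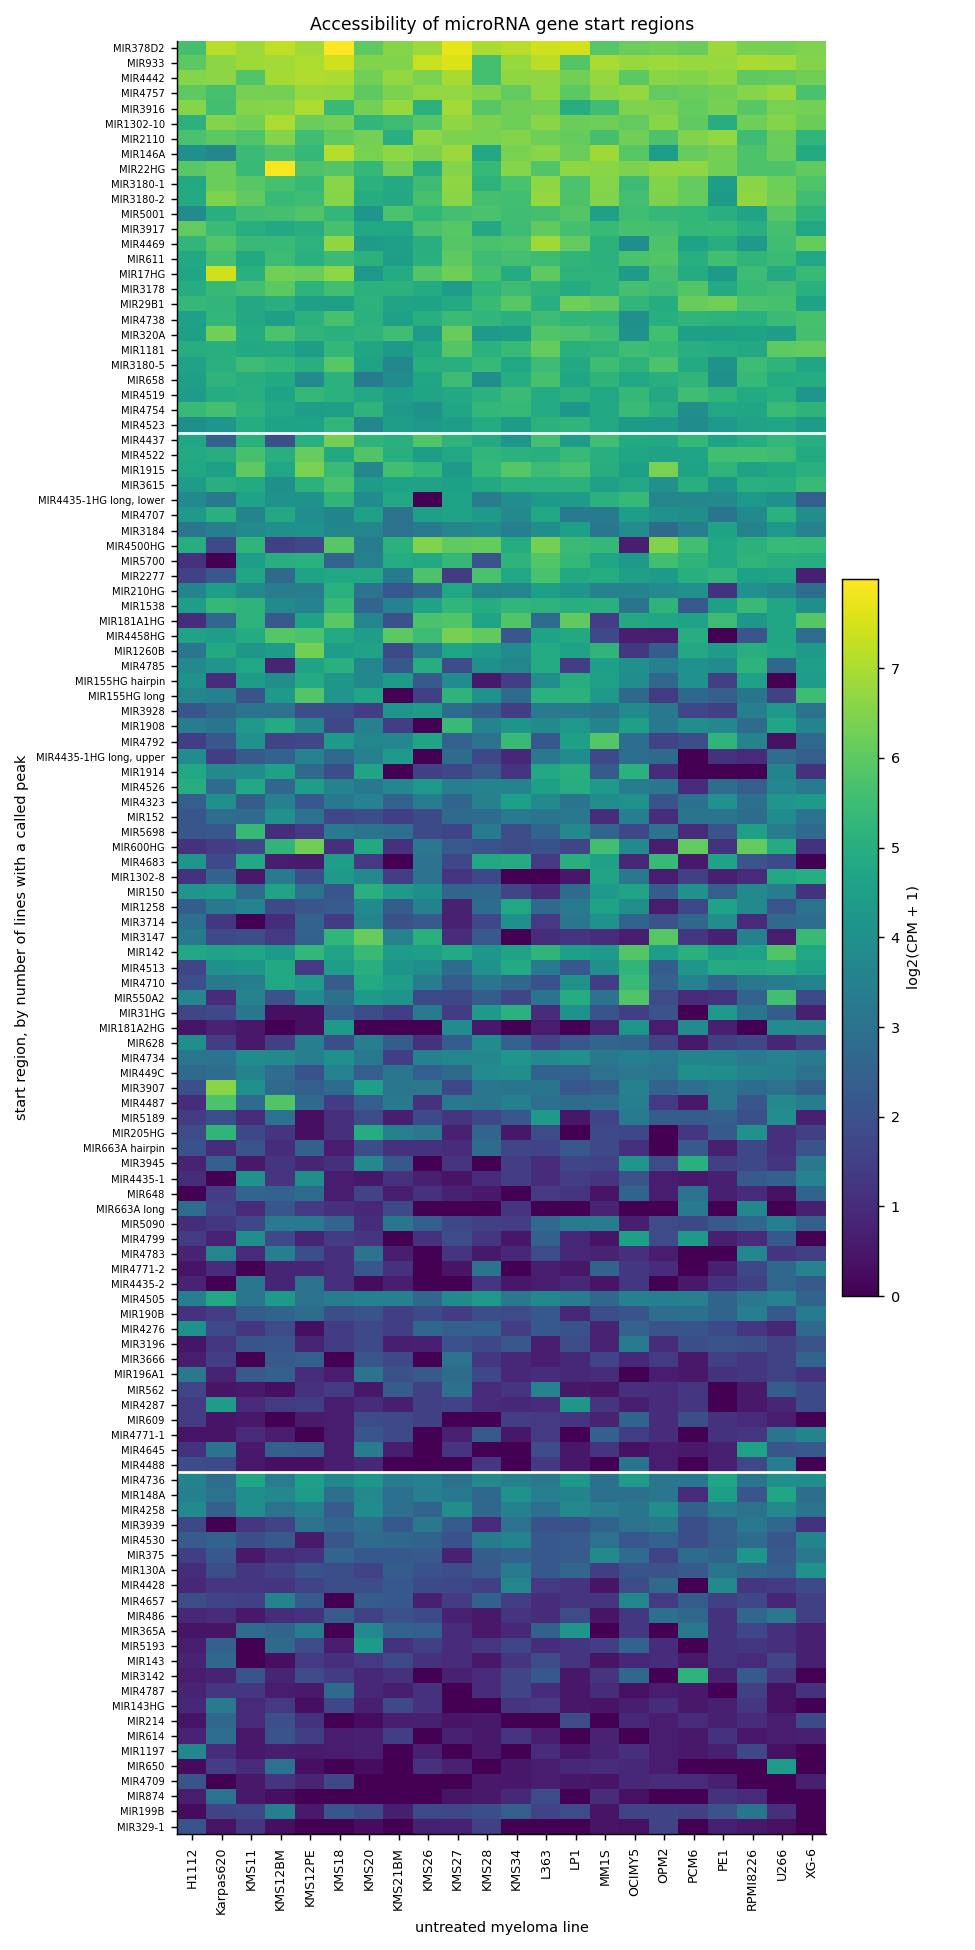
Accessibility, as log2(CPM + 1) by colour, of the 119 microRNA start regions (rows, ordered by the number of lines with a called peak and then by median CPM) in the 22 untreated lines (columns). White lines divide the 26 regions called in all lines, the 69 called in 2 to 21 and the 24 called in 1 or none. The upper block is bright in every column and the middle block changes from line to line.

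The 10 highest levels per kb included 3 starts shared with a protein-coding gene, MIR933, MIR378D2 and MIR2110. MIR933, at the start of ATF2, a transcription factor gene, at chr2:176032432-176033517, had the highest median, 102 CPM per kb, with 48.7 CPM in KMS28, a median of 111 CPM and 186 CPM in KMS27. MIR3916 followed with 91.0 CPM per kb, MIR4757 with 79.7, MIR146A with 72.5, MIR3180-2 with 67.9, MIR1302-10 with 67.2, MIR3180-1 with 65.1, MIR378D2 with 64.3, MIR2110 with 56.8 and MIR4736 with 49.7. MIR378D2 lies at the start of PDP1, a mitochondrial phosphatase gene, and MIR2110 at that of CCDC186. MIR4757, MIR3916 and MIR146A had no protein-coding start in the region. MIR3180-1, MIR3180-2 and MIR1302-10 are near-identical copies of other sequence. Every 31-base word of the MIR3180-1 and MIR3180-2 regions and 91.3% of those of MIR1302-10 occur elsewhere in GRCh37, so how their reads were assigned is uncertain, and 9 regions in all had more than 50% such words. MIR4736, 215 bp wide, reached its place by its narrow width and was called in 1 line.

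Further starts called in all lines coincided with starts of protein-coding genes. MIR4442, at the start of TOP2B, a DNA topoisomerase gene, had 47.8 CPM in KMS28, a median of 93.6 and 130 in KMS12PE. MIR1181, at that of CDC37, a kinase co-chaperone, had 19.04 CPM in KMS21BM, a median of 32.3 and 67.3 in L363. MIR320A, at that of POLR3D, an RNA polymerase III subunit, had 15.9 CPM in OCIMY5, a median of 34.2 and 77.0 in Karpas620. In these regions reads of the microRNA start and of the protein-coding start cannot be told apart. Other hairpins of this kind were MIR5001 (EIF4E2 and TIGD1), MIR4469 (HOOK3 and RNF170), MIR4738 (UNK), MIR3180-5 (PKD1) and MIR658 (ANKRD54), with medians of 29.6 to 42.3 CPM. MIR4523 was a long transcript with a TAOK1 start and a median of 21.2 CPM.

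MIR146A was the highest of the lymphoid microRNA starts, and all 22 lines had a peak there. miR-146a is known for damping NF-kB signalling downstream of Toll-like receptors. The region chr5:159894496-159895454 covers the start of the long transcript, and the hairpin lies 16905 bp beyond it, at chr5:159912359-159912457. Levels ran from 12.1 CPM in Karpas620 (95% Wilson interval 8.73 to 16.9) through a median of 69.5 to 137 in KMS18 (121 to 156). Karpas620, H1112 with 15.1, OPM2 with 21.4, KMS28 with 26.9 and XG-6 with 28.7 CPM were the low lines, and KMS27 with 110 and MM1S with 115 CPM stood next to the top. The intervals of KMS18 and Karpas620 do not overlap, and they cover counting error only, since PCR copies are not independent molecules.

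MIR3142, a hairpin inside the MIR146A transcript, was open in 1 line. Its region, chr5:159901071-159901543, held 35.3 CPM in PCM6 (28.2 to 44.2) and at most 5.31 CPM, in OCIMY5, in the other lines. PCM6 itself had 70.2 CPM at the MIR146A start, close to the median there.

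MIR22HG and MIR17HG were called in every library and each had 1 line far above its median. At MIR22HG, host of miR-22, which is abundant in blood cells, the region chr17:1619357-1620930 also holds a start of WDR81. It had 31.8 CPM in KMS26, a median of 68.5 and 239 in KMS12BM (224 to 255), with PCM6 and OPM2 next at 102. KMS12PE, from the same patient as KMS12BM, had 53.2 CPM. Regions within 5 Mb of MIR22HG, leaving out 10 kb on each side, held 1.51 times their mean share in KMS12BM and 0.81 times in KMS12PE.

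MIR17HG, host of the miR-17-92 cluster, which MYC is known to induce and which is amplified in some lymphomas, had 18.05 CPM in KMS20 (14.6 to 22.3), a median of 38.2 and 169 in Karpas620 (154 to 184). KMS18 was next with 98.7 CPM, followed by KMS12BM with 77.1, KMS27 with 73.5 and KMS12PE with 72.8. In Karpas620 the regions within 5 Mb, leaving out 10 kb on each side, held 0.82 times their mean share. The part of copy number in the level of the start was not tested. The Karpas620 cells under lenalidomide again had the highest level, 161 CPM. MIR17HG was the sole locus of a list of 10 symbols of this cluster and its paralog on chromosome 7 with a region in the set.

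MIR29B1, the long transcript of the miR-29 locus on chromosome 7, was open in every line. The miR-29 family is known to target collagens, DNA methyltransferases and MCL1. Its level at chr7:130597624-130598765 was 21.6 CPM in KMS12PE, 36.0 at the median and 76.9 in PE1. LP1 with 74.3, PCM6 with 69.3, MM1S with 64.5 and KMS34 with 60.2 CPM were also high, and KMS12PE, KMS18, XG-6 and KMS26 were between 21.6 and 23.8. MIR29B1 and MIR365A (median 1.36 CPM) were the loci found from a list of 26 tumour suppressor and p53-linked symbols.

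MIR142, a microRNA specific to blood cells, had a narrow range. Its start at chr17:56409609-56410165 had 17.6 CPM in KMS28, a median of 24.4 and 57.2 in OCIMY5, with U266 at 55.2, KMS20 at 41.3 and KMS12PE at 38.7. The SD of log2(CPM + 1) over lines was 0.46, against a median of 0.86 over the 119 regions and 0.71 over other starts. The hairpin lies 930 bp from the region.

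At MIR155HG, the transcript start and the hairpin were called in overlapping but not identical sets of lines. miR-155 is needed for germinal centre responses and is raised in many lymphomas. The start region, chr21:26933989-26934975, was called in 12 lines, and the region over the hairpin, chr21:26945868-26946511, in 15. Both were called in 10 lines, the start alone in Karpas620 and KMS28, the hairpin alone in H1112, KMS11, KMS21BM, PCM6 and RPMI8226, and neither in KMS26, KMS34, OPM2, PE1 and U266, which leaves 4 lines without PE1. The start had 0 counts in KMS21BM (the limit that 3 counts set is 1.79 CPM), a median of 11.04 CPM and 56.5 in KMS12PE (49.5 to 64.4). The hairpin region had 0 counts in U266 (limit 0.82 CPM), a median of 14.4 CPM and 30.4 in LP1 (24.1 to 38.4). In KMS21BM, where the start had no count, the hairpin region held 19.6 CPM, and in KMS28 the start held 15.8 and the hairpin region 0.46. Levels of called and uncalled lines overlapped at the start. H1112, without a call there, held 11.7 CPM, and OCIMY5, with a call, held 5.31.

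**Figure D3:**
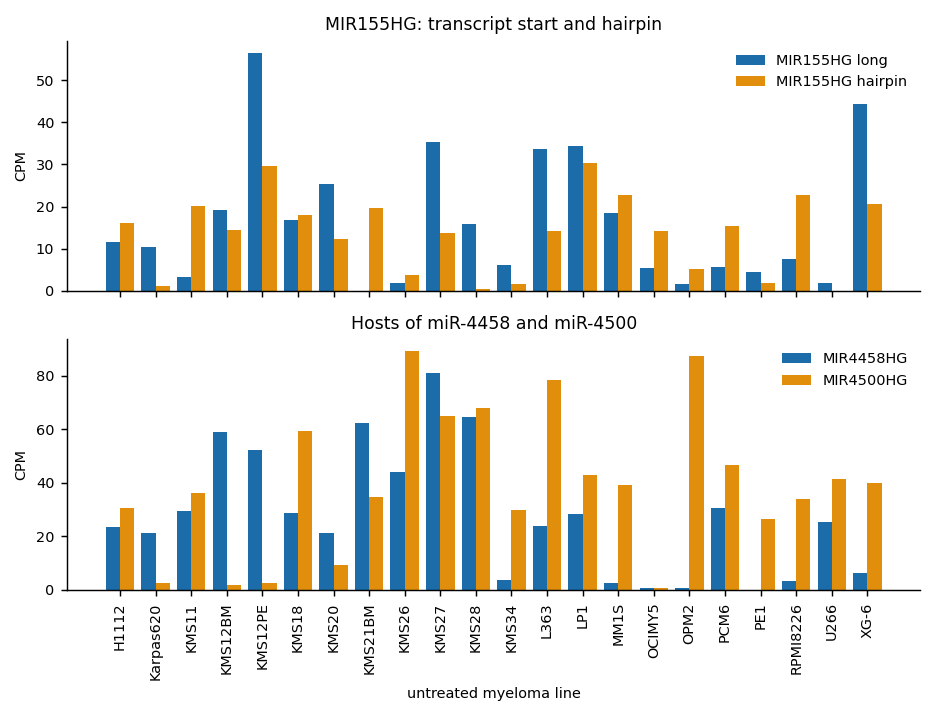
Accessibility in CPM (vertical axes) in each untreated line (horizontal axis) at the start and at the hairpin of MIR155HG (upper panel) and at the hosts of miR-4458 and miR-4500 (lower panel). KMS21BM has a hairpin bar of 19.6 CPM with 0 at the MIR155HG start, and OCIMY5 is near 0 at both hosts in the lower panel.

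The starts of the paired miR-181 hosts were nested in their pattern. miR-181 is known for setting receptor signalling thresholds in lymphocytes. MIR181A1HG, chr1:198906325-198906837, was called in 17 lines (16 without PE1), with 1.08 CPM in H1112, a median of 24.7 and 64.7 in LP1. MIR181A2HG, chr9:127420346-127421019, was called in 6 lines, KMS18, KMS27, OCIMY5, PCM6, U266 and XG-6, at 12.5 to 19.1 CPM, and the other lines had at most 0.69 CPM. The ranges of the called and uncalled lines did not overlap at MIR181A2HG. In each of the 6 lines MIR181A1HG was called too, and neither was called in H1112, KMS12BM, KMS21BM, L363 and MM1S.

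MIR148A and MIR150 were called in few lines. miR-148a is known from plasma cell differentiation, and miR-150 falls as mature B cells are activated. MIR148A, chr7:25989395-25989643, had 0.93 CPM in PCM6, a median of 9.06 and 25.4 in U266, and its 1 call was in KMS12PE at 20.6 CPM. The region is 249 bp wide, and its median per length was 36.4 CPM per kb, against 33.1 at MIR17HG and 8.40 at MIR150. MIR150, chr19:50003648-50004640, was called in 7 lines, with 1.02 CPM in L363, a median of 8.35 and 32.4 in KMS20. MIR152, which shares the miR-148a seed, was called in 9 lines at the start of COPZ2, with a median of 6.19 CPM. The lymphoid list held 19 symbols, of which 8 had regions, 9 in all, and 2 of the 9, MIR146A and MIR22HG, were called in every line.

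**Figure D4:**
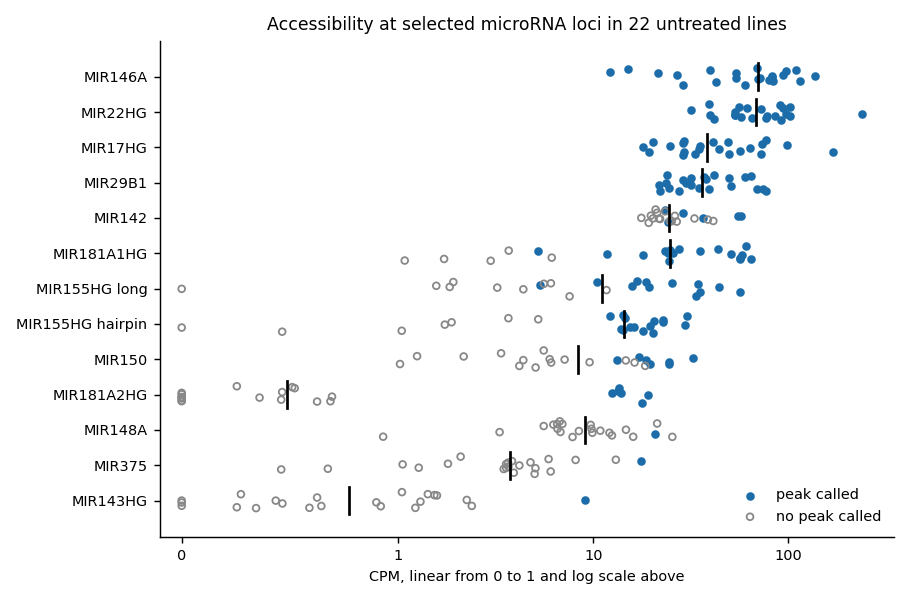
Accessibility in CPM (horizontal axis, linear from 0 to 1 and logarithmic above) at 13 regions of selected microRNA loci, with 1 point for each of the 22 untreated lines, filled where a peak was called, and a bar at the median. MIR181A2HG splits into 6 filled points at 12.5 to 19.1 CPM and the rest at or below 0.69, whereas the points of MIR142 form 1 band in which called and uncalled lines mix.

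The 10 regions with the largest SD over the 22 lines were open in some lines and near 0 in others. They were MIR600HG with an SD of 1.97 on the log2(CPM + 1) scale, MIR4458HG with 1.95, MIR3147 with 1.94, MIR4683 with 1.91, MIR1914 with 1.82, MIR4500HG with 1.74, MIR181A2HG with 1.69, MIR1302-8 with 1.62, MIR181A1HG with 1.57 and the MIR155HG start with 1.56. Scaling each line by the regions within 5 Mb put 9 of these 10 among the top 10 again, with the MIR155HG start at place 12. Copy number was not measured.

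The hosts of the microRNAs with the let-7 seed were among the most variable. MIR4458HG, chr5:8457292-8458248, was called in 15 lines at 21.2 to 81.0 CPM, and the uncalled lines had at most 6.24. It had 0 counts in PE1 (limit 1.88 CPM), 3.46 CPM in KMS34 and 81.0 in KMS27, and its SD was 1.77 without PE1. The miR-4458 sequence lies 2798 bp from this region and outside the annotated transcript. MIR4500HG, chr13:88322985-88324082, a region that also holds the start of SLITRK5, was called in 18 lines (17 without PE1) at 9.24 to 89.3 CPM. OCIMY5 with 0.59, KMS12BM with 1.84, KMS12PE with 2.29 and Karpas620 with 2.43 CPM lacked a call. Both hosts were called in 12 lines, MIR4458HG alone in 3, MIR4500HG alone in 6 (5 without PE1) and neither in OCIMY5.

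MIR600HG, whose region chr9:125873715-125874840 covers the miR-600 hairpin, was called in 8 lines, at 76.3 CPM in KMS12PE, 67.0 in PCM6, 66.1 in RPMI8226, 47.0 in MM1S, 36.3 in KMS12BM, 29.5 in U266, 28.1 in KMS20 and 13.3 in OCIMY5. The other lines had at most 7.95 CPM. MIR3147 was called in 7 lines, led by KMS20 with 69.8 and OPM2 with 59.5 CPM, and had 0 counts in KMS34 (limit 1.30 CPM). MIR4683 was called in 8 lines at 16.9 to 42.3 CPM, and PE1, without a call, had 23.8 CPM beside 29.4 in KMS34, which was called. Among the 119 regions, MIR31HG was the most like MIR4683 across the 22 lines (r = 0.76, a description over lines that include KMS34 and PE1). Both regions were called in KMS11, KMS28, KMS34 and LP1.

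MIR1914, at the start of UCKL1, was called in 10 lines at 5.85 to 33.6 CPM against at most 3.78 elsewhere. MIR1302-8 was called in 8 lines, with its highest level of 30.6 CPM in XG-6. Further regions outside the 10, singled out after their values were seen, were MIR5700, with 0 counts in Karpas620 (limit 1.04 CPM), a median of 30.2 CPM and 57.1 in L363, and MIR2277, with 0.62 CPM in XG-6, a median of 24.6 and 53.2 in KMS26.

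MIR210HG and MIR31HG were long transcripts with no protein-coding start and an uneven pattern. miR-210 is known as a target of hypoxia-inducible factors. MIR210HG, chr11:568280-568880, was called in 18 lines, with 1.25 CPM in PE1, a median of 11.8 and 33.7 in KMS18. MIR31HG, chr9:21559097-21560253, was called in 6 lines (5 without PE1), led by KMS34 with 33.3, KMS28 with 19.02, PE1 with 18.1 and LP1 with 16.1 CPM, and had 0 counts in PCM6 (limit 1.39 CPM). MIR4435-1HG had separate starts called in 20 (19 without PE1) and in 11 lines, with medians of 15.7 and 5.17 CPM, and both had 0 counts in KMS26 (limit 1.83 CPM). MIR663A had a start of a long transcript and a hairpin region, each called in 4 lines, at medians of 0.773 and 2.102 CPM.

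Among the 22 untreated lines, a peak was called in 1 line at 22 regions and lacking in 1 line at 2. The called line had the highest level at 15 of the 22, and at 7 an uncalled line was higher, so that a single call there does not mark the line with the most accessible start. Depth differed between lines as well. PE1, with 1599857 counts, had 39 regions called, KMS20, with 4653969, had 69, and H1112, the deepest with 5564534, had 59. The part of depth in single calls was not tested. Karpas620 alone had calls at MIR143, MIR143HG, MIR214, MIR614 and MIR874, at 5.20 to 9.02 CPM. MIR143 and MIR143HG are known from smooth muscle and stromal cells. KMS20 alone had a call at MIR5193, with 19.6 CPM against at most 5.79 elsewhere, and H1112 at MIR1197, with 12.4 against 2.36, and at MIR4709, with 3.23 against 2.24. U266 was the 1 untreated line called at MIR486, with 7.93 CPM against at most 6.78. MIR486 was also called in the lenalidomide library of OPM2, with 42 of its 2211645 counts. U266 alone had a call at MIR650, which lies within the immunoglobulin lambda locus. It held 19.95 CPM there (15.9 to 25.1) against at most 7.10, in KMS12BM, in the other lines. RPMI8226 was the 1 untreated line called at MIR375, a microRNA of neuroendocrine cells, with 17.5 CPM against at most 13.05. MIR375 was also called in the lenalidomide libraries of MM1S and RPMI8226. The others where the called line was the highest were MIR4787 in KMS18, MIR4657 in OCIMY5, MIR3142 in PCM6 and MIR130A in XG-6. MIR130A was also called in the lenalidomide library of RPMI8226. Of the 7 with a higher uncalled line, KMS20 was the called line at MIR365A (12.9 CPM, with 16.9 in an uncalled line), MIR4530 (6.02 and 11.3) and MIR3939 (6.66 and 8.50). MIR3939 was also called in the lenalidomide library of RPMI8226. H1112 was called at MIR4258 (12.9 and 14.5), KMS11 at MIR4736 (24.8 and 25.6) and KMS12PE at MIR148A (20.6 and 25.4). KMS34 was called at MIR4428 with 11.7 CPM, and the uncalled line with 12.5 CPM was PE1. MIR4437 lacked a call in KMS12BM alone, at 2.89 CPM (1.62 to 5.18) against a median of 32.3. MIR4522 lacked one in KMS26 alone, although that line held 21.4 CPM (15.4 to 29.8), just under the lowest called line with 23.5. MIR3907 was called in 4 lines and held 93.7 CPM in Karpas620 (83.1 to 106) against 21.7 in KMS20, the next line.

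MicroRNAs of other tissues had low levels in most lines. Of 35 such symbols 4 had regions, MIR143, MIR143HG, MIR375 and MIR205HG, with medians of 0.77 to 3.75 CPM and calls in 1 to 4 lines, and MIR196A1 was the 1 region from 6 symbols of the HOX clusters, with a median of 1.25 CPM. MIR205HG was called in 4 lines at 5.10 to 36.4 CPM, the highest being Karpas620, and its SD was 1.46. MIR375 held 17.5 CPM in RPMI8226 and up to 13.05 CPM in an uncalled line. Start regions of 2 stromal genes summed to 11.5 to 93.5 CPM and those of 4 epithelial genes to 1.86 to 83.6 CPM over the lines, and their part in these values was not tested.

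The regions called everywhere were richer in CpG. The 26 regions called in all lines had a median GC content of 65.2% and an observed to expected CpG ratio of 0.78, the 69 called in 2 to 21 lines had 56.0% and 0.39, and the 24 called in 1 or none had 54.9% and 0.23. The other start regions showed the same order, with ratios of 0.78, 0.69 and 0.36. The widths went the same way, with medians of 1091, 636 and 367 bp for the microRNA starts, and wider regions collect more counts.

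Promoter windows of 3 loci, from 250 bases before to 50 after the annotated start, show the range of sequence behind these patterns. The MIR155HG window, chr21:26933971-26934270 (GRCh37, plus strand), belongs to the start that was near 0 in several lines. Its capitals mark 2 matches to the core of interferon response elements (a GAAA, 2 bases of any kind and a GAAA), the first on the opposite strand:
MIR155HG start: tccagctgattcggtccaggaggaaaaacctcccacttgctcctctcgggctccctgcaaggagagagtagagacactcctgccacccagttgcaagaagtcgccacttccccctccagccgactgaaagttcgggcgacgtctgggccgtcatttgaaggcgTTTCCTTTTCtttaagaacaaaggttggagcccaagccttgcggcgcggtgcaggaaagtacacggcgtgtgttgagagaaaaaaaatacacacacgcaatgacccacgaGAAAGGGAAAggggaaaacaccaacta
The MIR142 window, chr17:56409820-56410119 (GRCh37, minus strand), belongs to a start with a narrow range, and its capitals mark 1 match to CACGTG, the E-box that MYC and USF factors bind:
MIR142 start: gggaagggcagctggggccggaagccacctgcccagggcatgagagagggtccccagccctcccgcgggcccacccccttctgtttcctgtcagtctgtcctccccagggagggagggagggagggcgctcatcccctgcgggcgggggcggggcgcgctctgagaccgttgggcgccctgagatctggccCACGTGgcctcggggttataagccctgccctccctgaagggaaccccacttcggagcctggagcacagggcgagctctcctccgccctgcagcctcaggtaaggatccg
The MIR181A1HG window, chr1:198906509-198906808 (GRCh37, minus strand), belongs to a start that varied widely, and its capitals mark 1 match, on the opposite strand, to TGAGTCA, the AP-1 site:
MIR181A1HG start: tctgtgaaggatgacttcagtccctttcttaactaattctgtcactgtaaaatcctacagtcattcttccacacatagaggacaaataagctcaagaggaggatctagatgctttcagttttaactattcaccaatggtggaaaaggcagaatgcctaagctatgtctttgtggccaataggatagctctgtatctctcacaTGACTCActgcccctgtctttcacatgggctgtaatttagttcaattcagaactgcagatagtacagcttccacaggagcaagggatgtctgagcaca
On both strands of such windows, CACGTG was found in 15 of 119 microRNA starts (12.6%) and in 8.37% of all 18012 start windows. TGAGTCA was found in 8 (6.72%) and in 4.76%, the interferon response core in 5 (4.20%) and in 4.17%, and CAGGTG, the E-box of E2A proteins, in 36 (30.3%) and in 23.6%. One spelling of an NF-kB site (GGGAA, 1 base of any kind and TTCC) was in none of the 119 windows and in 0.405% of all, and other spellings were not searched. The MIR17HG window held none of these motifs. Of the 119 windows, 95 are placed at the ends of hairpins, and 24 of these 95 hairpin regions also hold a protein-coding start. In the 24 windows of long transcripts, CACGTG was found in 3 (12.5%) and TGAGTCA in 3 (12.5%). The interferon response core was found in 1 of the 24 (4.17%) and CAGGTG in 7 (29.2%). A match is a description of letters, and no factor was measured.

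The comparison of lenalidomide with untreated cells asked whether the drug changed accessibility at these starts in the 6 lines with both libraries. No microRNA start region passed the threshold. After filtering of low counts 68 of the 119 regions were tested and 51 were not, and 0 of 68 had an adjusted p below 0.05 in edgeR's quasi-likelihood test, against 2036 of all 37732 regions tested (5.40%) and 323 of 13025 other start regions (2.48%). At an unadjusted p below 0.05 there were 7 of 68 (10.3%), against 17.3% of all regions tested. DESeq2 gave 0 regions at an adjusted and 2 at an unadjusted p below 0.05. The log2 changes of the 68 had a median of -0.017 and ran from -0.54 to 0.53, and the median over all tested regions was -0.011. A p that misses the threshold does not show that a region stayed the same. The count over all regions fell to 1310 without KMS27 and to 1067 without MM1S.

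The 5 regions with the smallest p had log2 changes below 0. MIR3917, in a region with the start of STMN1, a microtubule regulator, held 42.7 CPM untreated and 39.9 with lenalidomide in Karpas620, 59.4 and 41.0 in KMS27, 64.8 and 45.2 in L363, 40.5 and 22.5 in MM1S, 48.5 and 37.5 in OPM2, and 31.2 and 35.8 in RPMI8226. It was lower in 5 of 6 pairs, and the edgeR log2 change was -0.36 (SE 0.12, adjusted p = 0.074). MIR611, in a region with the starts of FEN1, a replication nuclease, and TMEM258, held 47.5 and 34.4 CPM in Karpas620, 63.7 and 46.9 in KMS27, 44.9 and 36.4 in L363, 33.3 and 22.9 in MM1S, 55.8 and 37.1 in OPM2, and 36.8 and 50.6 in RPMI8226. Its log2 change was -0.30 (SE 0.12, edgeR adjusted p = 0.17). In both regions RPMI8226 was the pair that went the other way, and its lenalidomide library was the deepest of the 6, with 4248017 counts against 2117764 untreated. Without RPMI8226, MIR3917 passed the threshold at -0.46 (edgeR adjusted p = 0.012) and so did MIR611 at -0.46 (edgeR adjusted p = 0.0099). Leaving out the pair that went the other way lowers the estimate by itself, so this adds no evidence of a change. Neither region passed with any other line left out.

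MIR3907 was lower in 6 of 6 pairs, by an edgeR log2 change of -0.54 (SE 0.22, adjusted p = 0.17). It held 93.7 CPM untreated and 75.9 with lenalidomide in Karpas620, 2.36 and 1.71 in KMS27, 7.65 and 3.69 in L363, 4.12 and 1.81 in MM1S, 4.70 and 2.26 in OPM2, and 6.14 and 4.71 in RPMI8226. Outside Karpas620 the levels were low in both conditions. MIR4757 was also lower in 6 of 6 pairs, with mean levels of 84.1 CPM untreated and 74.7 with lenalidomide and an edgeR log2 change of -0.17 (SE 0.082, adjusted p = 0.28). MIR142 held 23.2 and 21.5 CPM in Karpas620, 28.7 and 22.2 in KMS27, 36.7 and 24.9 in L363, 19.2 and 13.8 in MM1S, 20.9 and 14.5 in OPM2, and 24.1 and 24.5 in RPMI8226. Its log2 change was -0.32 (SE 0.15, edgeR adjusted p = 0.26). The ranges of untreated and treated levels overlapped in all of these regions.

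The other tested starts from the lists did not pass the threshold either. The edgeR log2 changes were 0.16 (SE 0.095) at MIR146A, -0.29 (SE 0.20) at MIR181A1HG, -0.24 (SE 0.24) at MIR148A, 0.14 (SE 0.19) at the MIR155HG start, 0.11 (SE 0.20) at its hairpin, -0.073 (SE 0.090) at MIR22HG, -0.076 (SE 0.23) at MIR150, 0.061 (SE 0.11) at MIR29B1 and -0.019 (SE 0.088) at MIR17HG. Their adjusted p ran from 0.42 to 0.95 in edgeR. At the MIR155HG start the mean of the within-line changes was below 0 while the edgeR estimate was above 0. MIR181A2HG was not tested for low counts. It held 13.8 CPM in untreated and 12.7 in treated KMS27, and at most 0.90 in the other lines under either condition.

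**Figure D5:**
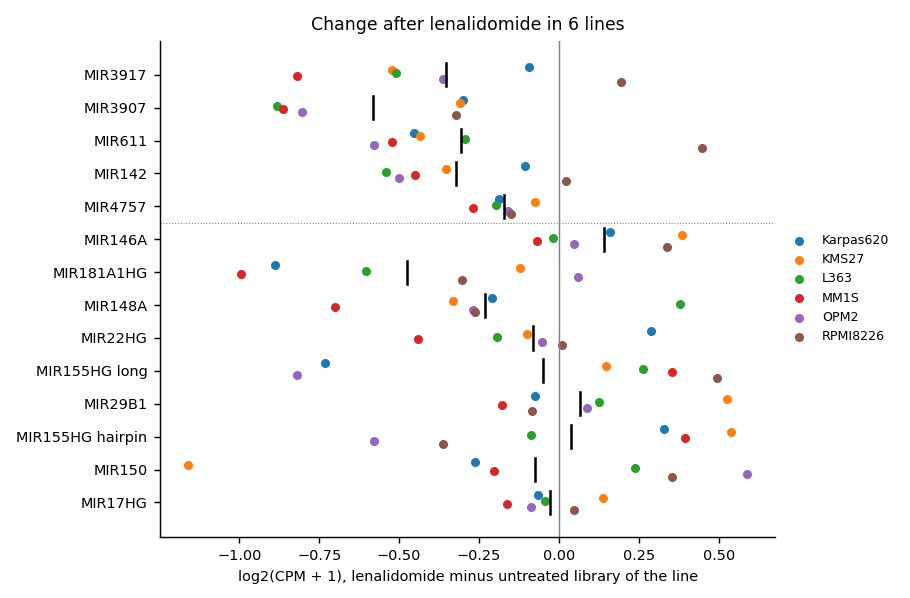
Change in log2(CPM + 1) from the untreated to the lenalidomide library (horizontal axis) at 14 microRNA start regions (rows), with 1 point for each of 6 lines and a bar at their mean. The upper 5 rows have the smallest p, and below the dotted line are tested regions from the lists of lymphoid, cluster and tumour suppressor microRNAs. RPMI8226 lies to the right of 0 for MIR3917 and MIR611 while the other lines lie to the left, and the lower rows straddle 0.

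The called state of the starts stayed closer within a line than between lines. Between the untreated and lenalidomide libraries of a line, 3 to 15 of 119 regions differed in being called (median 10.5), against 13 to 32 (median 20) between untreated libraries of 2 of the 6 lines. KMS34 and PE1 differed at 9. These differences were not counted over other start regions, so they do not set the microRNA starts apart. In RPMI8226, 13 regions were called with lenalidomide alone and 0 untreated alone. These numbers were 10 and 1 in MM1S, 5 and 4 in OPM2, 5 and 5 in KMS27, 1 and 2 in L363, and 2 and 13 in Karpas620. Of other start regions, 60.3% were called in untreated and 71.2% in treated RPMI8226, and 66.9% and 67.6% in MM1S. These shares were 56.6% and 57.5% in OPM2, 61.6% and 62.3% in KMS27, 57.3% and 62.7% in L363, and 65.7% and 65.2% in Karpas620. The lenalidomide library held more counts than the untreated one in RPMI8226, OPM2 and L363. It held fewer in MM1S, KMS27 and Karpas620. The part of depth in these shifts was not tested.

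Start regions of the genes that make and use microRNAs were also covered. Of 25 symbols 17 had start regions, 20 in all, and 9 of the 20 were called in all 22 lines, beside 37.6% of other start regions with a protein-coding start. DROSHA, which cuts the primary transcript, had a median of 62.2 CPM and 35.4 at its lowest, in RPMI8226. XPO5, which exports the hairpin, had a median of 28.6 CPM, and DICER1 one of 29.0 with calls in 20 lines and the lowest level, 8.13 CPM, in PE1. DGCR8 was called in 14 lines (median 9.46 CPM). LIN28B, which blocks let-7 maturation, was called in KMS12PE alone, with 7.63 CPM. After lenalidomide 0 of the 16 tested regions passed the threshold in edgeR, with log2 changes from -0.20, at DDX5, to 0.26, at DGCR8, and 2.48% of other start regions passed it.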

How the data were processed

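Open chromatin was assayed by ATAC-seq in 22 untreated myeloma lines and in 6 of them after lenalidomide. Per the labels and the study's methods, the authors aligned reads to GRCh37 with Bowtie2 2.2.6, used SAMtools 1.7, called peaks per library with MACS2 2.1.0.20151222, merged them into autosomal regions and deposited raw counts per region. The deposited RPM values equal CPM computed here from the counts. Whether duplicates were removed or read ends shifted for Tn5 is not given in the sources used here. The deposited table of whole-number scores was read as the number of a library's peaks in a region. No file says what it holds.

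Regions were joined to starts by the deposited annotation. Levels are CPM, and SDs use log2(CPM + 1). The microRNA regions and all lists were chosen with earlier results of these data known. Regions named by rule were the 5 with the smallest p under lenalidomide, the 10 highest in CPM per kb, the 10 with the largest SD, and every region in the lists. Other regions named above, among them MIR4442, MIR1181, MIR320A, MIR210HG and MIR31HG, fall outside these rules. Lenalidomide was tested over all regions with edgeR 4.0.16 (TMM, filterByExpr, cell line as a block, Benjamini-Hochberg, 0.05) in R 4.3.3, tested on simulated data. The untreated and treated libraries of a line, paired by the labels, deviated together (r = 0.82 to 0.89; at most 0.11 with other lines). Intervals are 95% Wilson. Protein-coding starts came from GENCODE (GRCh37), and microRNA sequences from RefSeq (GRCh38.p14), matched by letters to GRCh37. Alternatives were DESeq2 1.42.0, other scalings, filters and thresholds, no block and each line left out; leaving out PE1 was added after the data were seen. A result at 1 region called in all lines is not reported here.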

Additional observations from a re-analysis of the deposited data

Results flagged for a closer look

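The level of MIR3907 in the 6 lenalidomide libraries had 1 line far from the rest, Karpas620, with 75.9 CPM against 4.71 in the next line. The change of MIR611 after lenalidomide had 1 line far from the rest, RPMI8226, with a log2(CPM + 1) change of 0.45 against -0.29 in the nearest line. These were 2 of 28 sets of 6 values screened by Dixon's 95% critical value, which chance passes in about 1 in 20 sets, or 1.4 of 28.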

How the results depend on the processing

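The number of regions called after lenalidomide was 2036 and became 834 with DESeq2, 4092 when low counts were kept, 587 when every library needed 10 counts and 0 without the cell line as a block, and ran from 1067 to 2503 with a line left out. The number of microRNA starts called was 0 and became 1 when low counts were kept, and ran from 0 to 2 with a line left out (1 without L363 and 2 without RPMI8226). The single region in either case was MIR190B, at log2 changes of 1.01 and 1.14. Log2 changes near 0 turned sign with a line left out at MIR29B1 (-0.051 to 0.11), at the MIR155HG hairpin (-0.047 to 0.26) and at MIR150 (-0.22 to 0.058), in each case without KMS27 and at the hairpin also without MM1S (-0.024), and at MIR17HG when low counts were kept (0.041). With 2 CPM in place of a peak call, 40 microRNA starts were open in all 22 lines, 0 in 1 line and 0 in none. Over 28 libraries 0 had no call, which was fixed in advance, since the regions were merged from peaks called in these libraries. The median SD was 0.86 and became 1.31 with a pseudocount of 0.1. The cause of these shifts was not tested. The ratio of the median level of microRNA starts to that of other starts, 0.53, moved by less than the spread between lines under the alternatives run. Each line was assayed once, at 1599857 counts or more, so 0 counts set a limit of up to 1.88 CPM.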
